A study of Mus musculus with 6 samples.

Results

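The genes described here carry a cell through mitosis, and their transcripts were compared between lenses that lacked the Notch2 receptor and lenses of littermates that kept it. The group holds 38 named genes for mitotic cyclins and kinases, the spindle checkpoint, kinetochores, mitotic kinesins, cytokinesis and chromosome structure. These genes were chosen with earlier results of these data known. Members were all probe sets that the array's annotation maps to exactly 1 of these gene symbols, a step that used no measured values. They were 84 of the 45101 probe sets in the table and read 37 of the 38 genes, out of 18193 genes with such a probe set. Ccnb1, the gene of cyclin B1, had no probe set of its own in that annotation and is not analysed here. The 84 probe sets were spread unevenly: 13 genes had 1, 9 had 2, 10 had 3, 2 had 4 and 3 had 5.

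All 6 arrays carried RNA of ocular lenses from mouse embryos of embryonic day 19.5 whose strain was mixed from C57BL/6 and FVB/N, labelled from 100 ng of total RNA. The notch2 mutant group was 3 embryos with a conditional deletion of Notch2 in the lens, and the wild type group was 3 of their littermates in which Notch2 had not been ablated. Each array pooled the pair of lenses of 1 embryo, so its values average epithelium, fibres and whatever tissue stayed attached. No source used here names the Cre driver of the deletion. Values are on a log2 scale and centred so that the 6 arrays of a probe set have a median of 0. They show differences between arrays and no level, so neither the abundance of a transcript nor the presence of lens markers could be checked. Centring on the median of 6 values also makes the middle pair of values of a probe set equal in size and opposite in sign. A difference is mutant minus wild type, with its standard error (SE) from limma, a linear model with variances moderated across all probe sets, and its p adjusted over the 45037 probe sets that are not controls, with 0.05 as the threshold. In lens tissue taken whole, a different number of dividing cells and a different amount of mitotic RNA per cell cannot be told apart.

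Mitosis is driven by Cdk1 bound to cyclins A and B, and by the Aurora and Polo kinases. It is held back until chromosomes are attached by the spindle checkpoint (Bub1, Bub1b, Bub3, Mad2l1, Ttk) and ended when the anaphase-promoting complex, a ubiquitin ligase, destroys the cyclins. In the lens only the anterior epithelium divides, most of all near its equator, while fibre cells leave the cell cycle as they elongate. Most genes of mitosis are transcribed in waves, silent in resting cells and high in G2 and M phase. Their promoters are known for the CHR element, which binds the MuvB complexes that repress them in resting cells and activate them in G2, and for boxes bound by the activator NF-Y.

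Promoters of genes among those with the smallest p values are shown first, since many members carry these elements, which had no part in choosing them. RefSeq windows of assembly GRCm38.p6, reaching from 250 bases before to 50 bases after an annotated start, were found for 32 of the 38 genes, in 35 windows. Both strands were searched for the NF-Y box (CCAAT) and for the CHR element (TTTGAA or TTCGAA), and overlapping matches were each counted. Of the 35 windows 28 held an NF-Y box, or 80%, against 37.4% of all 32851 windows in the table. A CHR element was likewise in 28, against 19.2% of all windows. Both stood in 26 member windows (74.3%, against 7.52% of all), and 2 or more NF-Y boxes in 19 (54.3%, against 11.7%). In 16 windows of 13 genes a CHR element began 20 to 40 bases after the start of an NF-Y box (45.7%, against 0.968% of all windows), a range of spacing chosen after the positions were seen. Neither element was found in the windows of Birc5, Mad2l1, Melk, Nuf2 and Nusap1.

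Below are 230 bases of 6 promoters, 5′ to 3′ on the strand of the gene, from position -200 to 30 around the annotated start. They are Cdk1 at chr10:69352883-69353112 (minus strand), Mki67 at chr7:135716350-135716579 (minus strand), Prc1 at chr7:80294251-80294480 (plus strand), Spc25 at chr2:69206184-69206413 (minus strand), Ube2c at chr2:164769729-164769958 (plus strand) and Mad2l1 at chr6:66535021-66535250 (plus strand). Capitals mark NF-Y boxes and CHR elements on either strand. The first 5 carry both, and Mad2l1 is shown as a window that holds neither.
Cdk1: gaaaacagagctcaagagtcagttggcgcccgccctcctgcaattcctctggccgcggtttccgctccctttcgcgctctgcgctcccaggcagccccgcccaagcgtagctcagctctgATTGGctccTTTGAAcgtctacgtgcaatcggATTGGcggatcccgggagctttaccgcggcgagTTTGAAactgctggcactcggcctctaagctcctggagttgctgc
Mki67: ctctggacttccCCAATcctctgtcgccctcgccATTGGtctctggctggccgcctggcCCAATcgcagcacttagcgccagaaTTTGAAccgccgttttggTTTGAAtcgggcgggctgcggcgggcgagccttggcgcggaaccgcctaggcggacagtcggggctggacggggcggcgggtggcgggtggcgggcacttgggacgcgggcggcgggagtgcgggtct
Prc1: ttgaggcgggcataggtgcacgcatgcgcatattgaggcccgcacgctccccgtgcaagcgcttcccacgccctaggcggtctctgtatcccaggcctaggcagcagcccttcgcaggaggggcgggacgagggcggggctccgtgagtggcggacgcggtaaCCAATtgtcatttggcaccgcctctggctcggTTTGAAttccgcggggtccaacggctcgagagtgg
Spc25: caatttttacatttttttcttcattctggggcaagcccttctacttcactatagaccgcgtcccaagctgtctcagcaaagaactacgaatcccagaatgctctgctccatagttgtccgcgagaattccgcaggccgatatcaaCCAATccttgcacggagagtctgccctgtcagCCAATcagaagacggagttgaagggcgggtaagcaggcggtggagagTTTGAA
Ube2c: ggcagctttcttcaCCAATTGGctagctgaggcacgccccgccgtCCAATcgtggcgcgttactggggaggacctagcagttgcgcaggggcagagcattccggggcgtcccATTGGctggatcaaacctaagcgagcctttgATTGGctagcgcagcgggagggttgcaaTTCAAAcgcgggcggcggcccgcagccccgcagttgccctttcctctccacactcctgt
Mad2l1: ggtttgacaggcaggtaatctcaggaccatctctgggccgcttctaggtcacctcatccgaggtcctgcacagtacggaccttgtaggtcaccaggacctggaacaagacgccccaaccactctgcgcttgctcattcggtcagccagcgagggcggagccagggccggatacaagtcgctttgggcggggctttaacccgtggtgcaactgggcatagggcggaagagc

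In Cdk1 the last NF-Y box began at -48 and the last CHR element at -15, a spacing of 33 bases from start to start. Prc1 had 1 of each in the printed window, at -37 and -5, or 32 bases apart. Mki67 had 3 NF-Y boxes and, further from the start than in Cdk1, 2 CHR elements at -116 and -98. In Spc25 the CHR element lay inside the transcribed part at 25, and in Ube2c at -29, after 6 NF-Y boxes in the whole window, 2 of which overlap. A match is a run of letters and not a measured site.

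**Figure D1:**
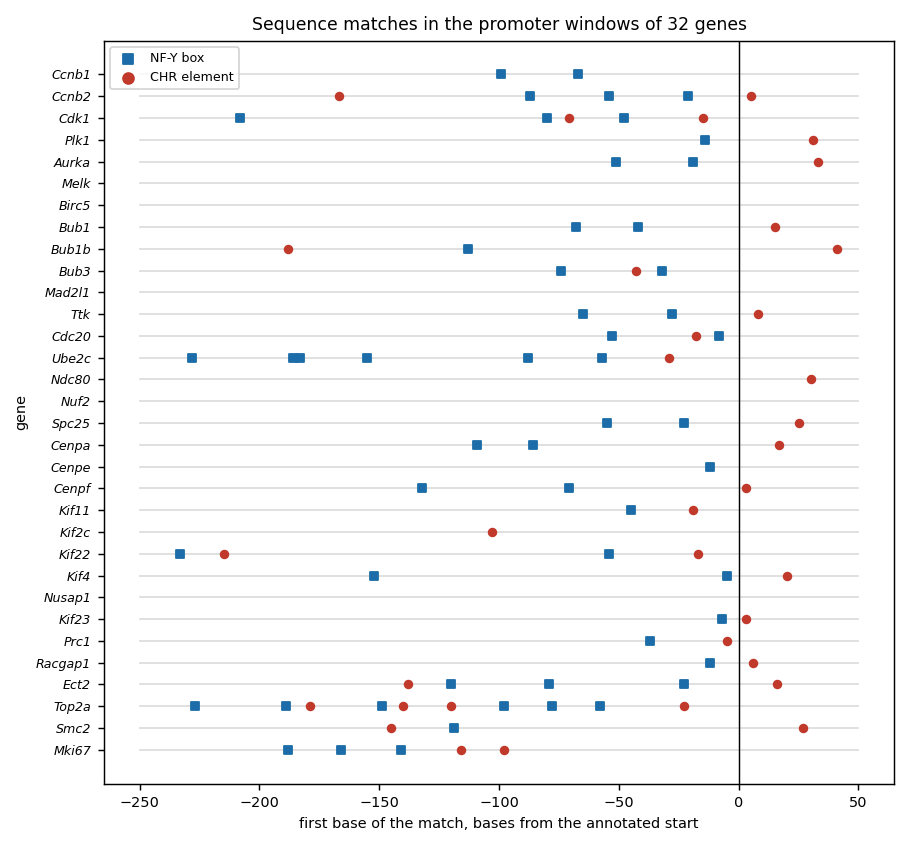
First base of each NF-Y box (squares) and CHR element (circles), in bases from the annotated start, in 1 promoter window for each of 32 genes, on either strand. Most circles lie to the right of the squares of the same gene and close to the start, and 5 genes have no mark.

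None of the 84 member probe sets passed in limma (0.469% of all 45037 probe sets passed in either direction, 0.293% as higher in mutants). Of the 84, 74 read higher in mutant lenses, or 88.1%, against 47.0% of all probe sets. Their median difference was 0.57, against -0.02 over all probe sets. Markers of retinal neurons and their progenitors were also higher in the same arrays, 24 of 25 measured with a median of 1.70, and with their mean as a covariate the member median was -0.11 with 36 of 84 positive and a median SE of 0.48 in place of 0.21. Without that covariate, 48 member probe sets exceeded 0.5, as did 5.19% of all. At an unadjusted p under 0.05, 45 were higher and 1 was lower, where 6.11% and 5.46% of all probe sets were. The 3 mutant arrays lay wholly above the 3 wild type arrays in 41 member probe sets, and wholly below in 1 (8.73% and 9.10% of all). The smallest adjusted p was 0.0526, for Tpx2. At a threshold loosened to 0.1 there were 8 probe sets of 8 genes, a count for which no share over all probe sets was taken. The differences were modest in size, and a single member probe set, that of Mki67, reached a fold of 2.

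**Figure D2:**
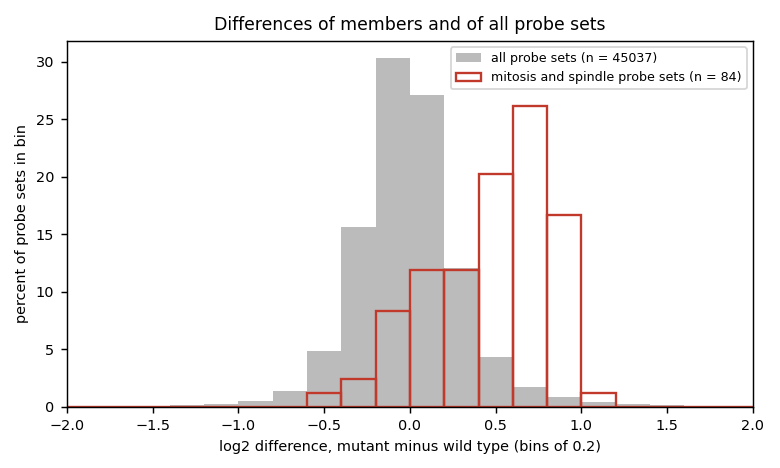
Log2 difference, mutant minus wild type, of all 45037 probe sets (grey bars) and of the 84 mitosis and spindle probe sets (red outlines), as the percent of each set in bins of 0.2. Members peak between 0.6 and 0.8, while all probe sets peak around 0.

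For an account gene by gene, each gene was read by whichever of its probe sets varied most (standard deviation, 6 arrays), a choice that ignores genotype and favours large differences in either direction. By it all 37 genes had a positive difference (45.9% of 18193 genes were positive). The sign of Cenpa turned under a repeated quantile normalisation and array weights, and those of Cenpa and Aurka when wild type 3 was left out. Aurka also read -0.0064 without mutant 3. With the retinal covariate, the genes that read negative included Nusap1, Cdk1, Cenpa, Aurka, Aurkb, Plk1, Kif2c and Top2a. Without that covariate the median was 0.76, and 28 genes had groups without overlap, all with mutants higher (9.48% of all genes). At an unadjusted p under 0.05 there were 27 (8.22% of all genes). With the mean of a gene's probe sets in place of 1, all 37 remained positive and the median was 0.62. The direction of the group was the same by either rule, with a smaller size when every probe set counted. The rules are not independent, since the mean includes the taken probe set, which is the only one in 13 genes.

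**Figure D3:**
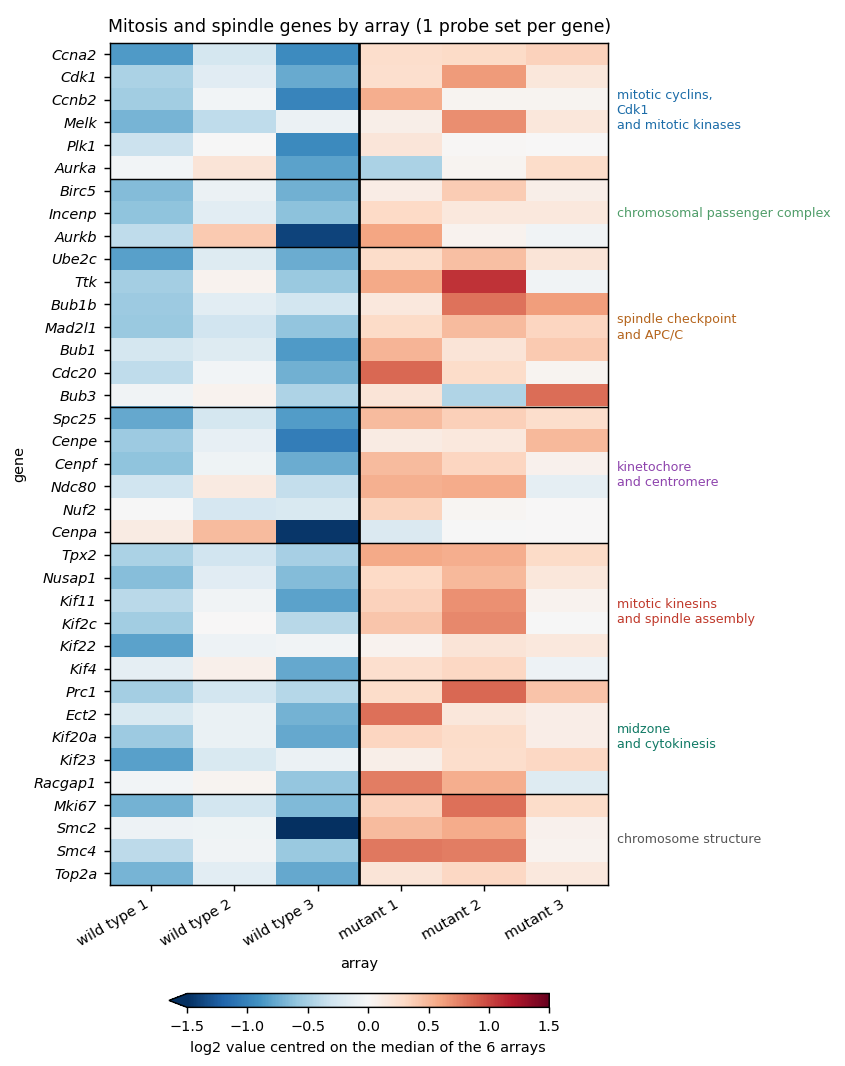
Centred log2 value of each of the 37 genes (rows, grouped by role) in each of the 6 arrays (columns), 1 probe set per gene. Wild type arrays are mostly blue, palest in wild type 2, and mutant arrays mostly red, palest in mutant 3. Aurka, Bub3 and Cenpa break the pattern, and the groups also overlap in Aurkb, Kif2c, Kif4, Ndc80, Racgap1 and Ttk.

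Among the genes of chromosome structure, Mki67, whose protein coats mitotic chromosomes and is the usual marker of dividing cells, stood at -0.71, -0.28 and -0.66 in wild type 1, 2 and 3 and at 0.35, 0.82 and 0.28 in mutant 1, 2 and 3. All mutant arrays lay above all wild type arrays. The difference of 1.03 (SE 0.20) is a 2.04-fold higher level (95% interval 1.49 to 2.79, adjusted p = 0.0623). Top2a, the topoisomerase that untangles sister chromatids, read -0.69, -0.16 and -0.76 against 0.20, 0.30 and 0.16, a difference of 0.76 (SE 0.19, adjusted p = 0.131). The condensin gene Smc4 had 3 probe sets, all without overlap, at 0.73, 0.80 and 0.87. The other condensin gene, Smc2, had the widest spread of this set: wild type 3 stood at -1.71, far below wild type 1 and 2 at -0.08 and -0.07. The difference was 0.99 (SE 0.40, adjusted p = 0.381). Other Smc2 probe sets gave 0.75, without overlap, and 0.57, 0.18 and 0.10, with overlap.

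In the group of cyclins and kinases, Ccna2, the gene of the cyclin that acts from S phase into mitosis, gave the lowest p. Its values were -0.85, -0.26 and -0.94 in wild type and 0.26, 0.29 and 0.35 in mutants, and the difference was 0.99 (SE 0.20, adjusted p = 0.068). Mutant arrays lay within 0.1 of each other, so the spread of this gene came from the wild type group, where wild type 2 stood apart from the rest. Its second probe set gave 0.81, also without overlap. Cdk1, the kinase that starts mitosis, stood at -0.47, -0.17 and -0.75 against 0.25, 0.64 and 0.17, a difference of 0.82 (SE 0.20, adjusted p = 0.129). Ccnb2, a B-type cyclin that activates Cdk1, differed by 0.73 (SE 0.25, adjusted p = 0.297), and the kinase gene Melk by 0.71 (SE 0.22, adjusted p = 0.229).

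Plk1, the Polo kinase, showed a smaller difference of 0.50 (SE 0.23, adjusted p = 0.469), from -0.32, -0.01 and -0.96 to 0.18, 0.02 and 0.01. The groups did not overlap, but wild type 2 and mutant 3 all but touched, and without wild type 3 the difference was 0.23. Aurka, the kinase of centrosomes and spindle poles, had values of -0.04, 0.19 and -0.80 against -0.48, 0.04 and 0.27. Its groups overlapped, the difference of 0.16 (SE 0.28, adjusted p = 0.888) turned to -0.14 without wild type 3, and the interval of -0.48 to 0.80 still covers the median of the group.

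The chromosomal passenger complex, which corrects faulty attachments and then guides cytokinesis, was read by 3 genes. Birc5, or survivin, read 0.68 higher (SE 0.20, adjusted p = 0.212), without overlap. Incenp, the scaffold, stood at -0.61, -0.15 and -0.62 in wild type and at 0.30, 0.15 and 0.16 in mutants, a difference of 0.67 (SE 0.17, adjusted p = 0.155). Aurkb, the kinase of the complex, stood at -0.39, 0.40 and -1.39 against 0.59, 0.05 and -0.05. Wild type 2 exceeded mutant 2 and 3 there, and the difference of 0.65 had an SE of 0.39 (adjusted p = 0.595). It was 0.19 without wild type 3 and 1.08 without wild type 2. The other Aurkb probe set gave 0.58 (SE 0.21).

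Spindle checkpoint genes and their counterparts at the anaphase-promoting complex had a median difference of 0.83 over 7 genes. Mad2l1, the inhibitor that the checkpoint loads onto Cdc20, read -0.55, -0.28 and -0.60 in wild type and 0.28, 0.47 and 0.32 in mutants. The arrays of each group kept close together, and the difference was 0.83 (SE 0.16, adjusted p = 0.0606). Ube2c, the ubiquitin-conjugating enzyme of the anaphase-promoting complex, stood at -0.82, -0.19 and -0.74 against 0.27, 0.45 and 0.19, a difference of 0.89 (SE 0.20, adjusted p = 0.0926). Bub1b, the checkpoint protein BubR1, differed by 0.86 (SE 0.21, adjusted p = 0.117), from arrays at -0.55, -0.15 and -0.28 against 0.15, 0.82 and 0.63. The kinase gene Bub1 read 0.80 and 0.60 by its pair of probe sets, and Cdc20, the activator that the checkpoint holds in check, 0.51, 0.67 and 0.77 by its 3, all without overlap. Ttk, the kinase that starts checkpoint signalling, differed by 0.87 (SE 0.29, adjusted p = 0.263), with mutant 2 at 1.09 but mutant 3 at -0.05, below wild type 2 at 0.05.

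Bub3, which holds Bub1 and Bub1b at the kinetochore, was the exception in this set. Its taken probe set stood at -0.05, 0.05 and -0.46 against 0.20, -0.45 and 0.84, so mutant 2 lay beside wild type 3 and the groups overlapped. The difference was 0.35 (SE 0.30, adjusted p = 0.730), and single arrays moved it, to 0.027 without mutant 3, 0.67 without mutant 2 and 0.20 without wild type 3. The 5 Bub3 probe sets ranged from -0.15 to 0.39 with none free of overlap.

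At the kinetochore, Spc25, a subunit of the Ndc80 complex that grips microtubules, stood at -0.77, -0.27 and -0.83 in wild type and at 0.48, 0.35 and 0.27 in mutants. This difference of 0.99 (SE 0.19, adjusted p = 0.0606) was a 1.99-fold higher level, and the second probe set gave 0.61 (SE 0.24, adjusted p = 0.365) with overlap. Its partners in the same complex differed less: Ndc80 by 0.49 (SE 0.23, adjusted p = 0.470), with mutant 3 at -0.14 below wild type 2 at 0.14, and Nuf2 by 0.29 (SE 0.16, adjusted p = 0.573). Whether the subunits differ from each other was not tested. Cenpe, a kinetochore motor, and Cenpf, a large kinetochore protein, read 0.82 (SE 0.24) and 0.76 (SE 0.21) without overlap, at adjusted p values of 0.196 and 0.175. The second Cenpe probe set gave 0.54 with overlap, and the other Cenpf probe sets gave 0.23 and 0.08, also with overlap. Cenpa encodes the histone that marks the centromere. Its taken probe set stood at 0.12, 0.47 and -1.46 in wild type and at -0.22 in mutant 1, with mutant 2 and 3 at 0 to within 0.01. The groups overlapped, with a difference of 0.22 (SE 0.42, adjusted p = 0.898) that rested on wild type 3: without that array it was -0.37, and it also turned to -0.018 when quantile normalisation was repeated and to -0.16 with array weights. Another Cenpa probe set gave 0.70 (SE 0.21, adjusted p = 0.220) without overlap.

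Of the genes that build the spindle, Tpx2, which activates Aurora A and nucleates spindle microtubules, had the smallest p of all members. It stood at -0.48, -0.29 and -0.49 in wild type and at 0.57, 0.55 and 0.29 in mutants, or -0.42 ± 0.11 against 0.47 ± 0.15 (SD, n = 3). The gap between the groups was several times their spread, and the difference of 0.89 (SE 0.16) is a 1.85-fold higher level with an adjusted p of 0.0526. Its other 3 probe sets gave 0.66, without overlap, and 0.26 and 0.12, with overlap. Nusap1, a microtubule bundling protein, read -0.64, -0.17 and -0.65 against 0.30, 0.48 and 0.17, a difference of 0.80 (SE 0.18, adjusted p = 0.103). The second Nusap1 probe set gave 0.42 (SE 0.24, adjusted p = 0.565) with overlap. Kif11, the motor that pushes spindle poles apart, differed by 0.56 to 0.78 over its 3 probe sets, and the one not taken at 0.66 (SE 0.14) had the smaller p (adjusted p = 0.0887). Kif2c, which depolymerises microtubules, stood at -0.52, 0.01 and -0.41 against 0.42, 0.72 and -0.01, so wild type 2 and mutant 3 overlapped. Its difference was 0.69 (SE 0.22, adjusted p = 0.257). The chromosome-arm motors Kif22 and Kif4 read 0.45 (SE 0.22) and 0.44 (SE 0.23), at adjusted p values of 0.485 and 0.534.

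At the midzone, where the cell is later cut apart, Prc1, which crosslinks antiparallel microtubules, stood at -0.50, -0.28 and -0.42 against 0.28, 0.86 and 0.43. The difference of 0.92 (SE 0.19, adjusted p = 0.068) came with its highest value in mutant 2, and the second probe set gave 0.66, likewise without overlap. Kif20a, a midzone motor, differed by 0.70 (SE 0.19, adjusted p = 0.176) and Ect2, the exchange factor that switches on RhoA for the contractile ring, by 0.72 (SE 0.24, adjusted p = 0.270), both without overlap. Racgap1 and Kif23 form the centralspindlin complex that recruits Ect2. Racgap1 differed by 0.56 (SE 0.27, adjusted p = 0.479), with mutant 3 at -0.20 below wild type 1 and 2. Kif23 stood at -0.81, -0.23 and -0.08 against 0.08, 0.26 and 0.31, a difference of 0.59 (SE 0.21, adjusted p = 0.293) without overlap that was 0.37 without wild type 1.

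The probe sets of a gene did not always tell the same story. Of the 24 genes with more than 1 probe set, 5 had all of them without overlap and higher in mutants. No share over all genes was taken for that count, so it has no background to be read against. Probe sets of both signs were found in 7: Bub1b, Bub3, Cenpa, Incenp, Kif2c, Kif23 and Top2a. The probe set at odds with the rest in Bub1b was the one member probe set with mutants wholly below wild type, at 0.10, 0.07 and 0.10 against -0.25, -0.77 and -0.07, a difference of -0.46 (SE 0.20, adjusted p = 0.412). One Top2a probe set gave -0.24 (SE 0.20, adjusted p = 0.712) beside 0.76 and 0.53. In Kif23, 1 probe set of 3 was positive, and the others read -0.30 (SE 0.18, adjusted p = 0.591) and -0.01 (SE 0.17, adjusted p = 0.990). The 5 Incenp probe sets ran from -0.19 to 0.67, and the 4 of Kif2c from -0.02 to 0.69. In all, 10 of the 84 were negative, none of them past the threshold. The values hold no level, so whether such a probe set reads a transcript above background could not be checked.

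**Figure D4:**
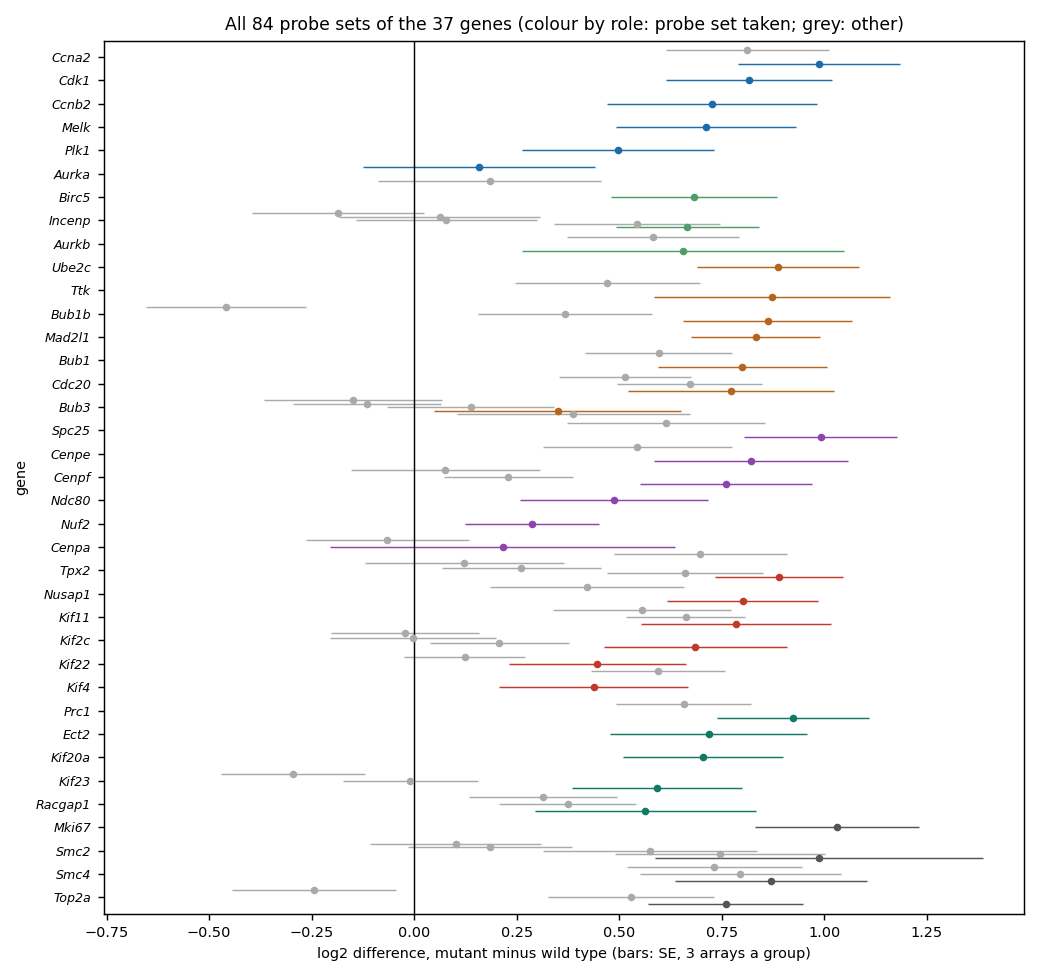
Log2 difference, mutant minus wild type, of all 84 probe sets by gene, with SE bars (3 arrays per group). Coloured points are the probe set taken for a gene, coloured by role, and grey points are its others. Points cluster between 0.5 and 1.0, and the points left of 0 are all grey.

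The roles had medians close to each other. Over the taken probe sets they ran from 0.62 for the 6 kinetochore genes to 0.93 for the 4 genes of chromosome structure. They were 0.67 for the passenger complex, 0.70 for the midzone, 0.72 for the cyclins and kinases, 0.73 for the kinesins and spindle assembly and 0.83 for the checkpoint, with every member positive in each role. Whether roles differ was not tested, and most hold few genes. Genes with a CHR element in their window (25) and without one (6) had the same median, 0.76, with ranges of 0.16 to 1.03 and 0.29 to 0.83.

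The members mostly ranked the wild type arrays alike, and the mutant arrays less uniformly. Wild type 2 was the highest wild type array in 33 of 37 genes, as in 30.6% of all genes, and wild type 3 was the lowest in 28 (38.0% of all). Among mutants, mutant 3 was the lowest in 24 (30.2% of all), and the highest mutant value was in mutant 2 in 17 genes, in mutant 1 in 14 and in mutant 3 in 6. Averaged over the 37 genes, wild type 1, 2 and 3 stood at -0.45, -0.08 and -0.69 and mutant 1, 2 and 3 at 0.34, 0.38 and 0.17. The groups were therefore apart, but wild type 2 and mutant 3 came within a narrow gap of each other. The arrays also divided by the array maker's hybridization controls, which were low on wild type 1 and 2 and mutant 1 (-1.50 to -0.99) and high on wild type 3 and mutant 2 and 3 (0.99 to 1.48). Within the low side the median member difference was 0.50, with 72 of 84 probe sets positive, and within the high side it was 0.77, with 74 positive. With this split as a block, 8 member probe sets passed, Tpx2, Spc25, Mad2l1 and Ccna2 among them, while 790 of all probe sets did (1.75%).

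The wider machinery of mitosis was read through a list of 82 measured genes outside the group. Of these, 2 rose and 0 fell (0.489% and 0.258% of all genes taken by 1 probe set), 69 were positive and the median difference was 0.51, against -0.03 over all genes. Arhgap11a, a RhoA-directed protein of cytokinesis, rose by 1.44 (SE 0.22, adjusted p = 0.0398), from -1.27, -0.62 and -0.50 to 0.50, 0.68 and 0.75. Cdca3, a trigger of mitotic entry, rose by 0.85 (SE 0.14, adjusted p = 0.0469), and the condensin gene Ncapg read 1.09 (SE 0.20, adjusted p = 0.0587). Of 40 replication genes 34 were positive, with a median of 0.46, and Rrm2 alone rose (1.24, SE 0.20, adjusted p = 0.0422). Of 17 regulators of cell cycle transcription, from the MuvB, B-Myb, FoxM1 and E2F families, 11 were positive, with a range of -0.41 to 0.86 and a median of 0.08. They held Lin9 at 0.55 (SE 0.15, adjusted p = 0.174), Rbl2 at 0.58 (SE 0.17, adjusted p = 0.191) and E2f8 at 0.86 (SE 0.25, adjusted p = 0.209). The 14 genes of the anaphase-promoting complex, its adaptor and its inhibitor had a median of -0.05, 5 of them positive, with Fbxo5, the inhibitor, at 0.93 (SE 0.29, adjusted p = 0.226). None of the 17 or the 14 passed in limma. At an unadjusted p under 0.05, 6 and 2 of them were called, all higher, where 8.22% of all genes were higher.

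Transcripts that mark some other cells also differed between these arrays. Of all genes taken by 1 probe set, 0.489% rose and 0.258% fell. Of 25 measured markers of retinal neurons and their progenitors, 10 rose and 24 were positive, among them Atoh7 (1.85, SE 0.23) and Otx2 (2.31, SE 0.34). Six3, Sox2 and Hes5 of that list are also known from lens. The list's mean lay between -1.14 and -0.37 in wild type and between 0.35 and 1.01 in mutants, lowest in wild type 3 and highest in wild type 2 within its group, and lowest in mutant 3 and highest in mutant 2, the same order as the mean of the mitotic genes. This is the mean that served as the covariate above, and it does not overlap between the groups. Of 17 macrophage and leukocyte markers none passed in limma. At an unadjusted p under 0.05, 9 were higher and 1 was lower (8.22% and 1335 of 18193 over all genes). Their mean ran from -0.89 to 0.06 in wild type and from 0.03 to 0.43 in mutants. The mean of glial markers (8) ran from -0.73 to 0.0034 against 0.05 to 0.25. Their median difference was 0.20, with 6 positive and 2 negative. Slc1a3 alone of them rose (1.36, SE 0.22), and Fabp7 read 1.87 (SE 0.47, adjusted p = 0.135). The mean of endothelial markers (12) ran from -0.38 to 0.53 against -0.11 to 0.05. Of 12 lens epithelium markers 4 fell and 1 rose, with means from 0.26 to 0.65 in wild type and from -0.67 to -0.31 in mutants. Of 15 lens fibre markers 2 fell, with means from 0.25 to 0.42 against -0.41 to -0.26. Markers of periocular mesenchyme and fibroblasts (11), pigment cells (9) and erythroid cells (5) had median differences of -0.07, -0.05 and 0.01. Col6a1, of the mesenchyme list, alone rose among them (1.15, SE 0.18, adjusted p = 0.0415). Dividing retinal progenitors and leukocytes express mitotic genes too, and the part of these cells in the values above was not tested. The retinal covariate separates the groups completely, so the fit with it could not tell retinal cells from genotype.

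**Figure D5:**
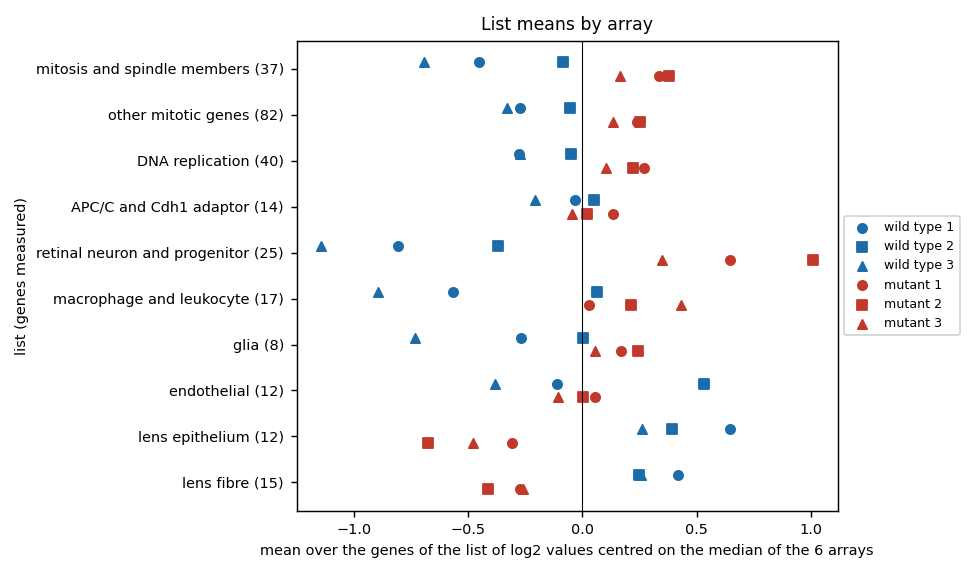
Mean centred log2 value over the genes of each list in each array (blue wild type, red mutant, the symbol giving the replicate number). The mitotic, replication and retinal lists keep all red points to the right of the blue ones, the lens lists keep them to the left, and the endothelial list and that of the anaphase-promoting complex mix them.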

How the data were processed

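Expression was measured on 6 oligonucleotide arrays, 3 wild type and 3 mutant. The authors made the deposited log2 values with RMA (per the submitters' processing notes, which name no version). Base 2 is taken from RMA's usual output. Each probe set had been centred (its 6 values had a median within 5e-07 of 0), so levels, detection calls and length scaling were out of reach. The number of arrays limits the precision.

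Gene names came from the platform annotation: of 45037 that are not controls, 34945 had 1 symbol, 932 several and 9160 none. The 84 member probe sets all matched RefSeq (GRCm38.p6) by Entrez identifier with the same symbol.

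Genotypes were compared with limma 3.58.1 in R 4.3.3 (lmFit, eBayes, no covariate), with Benjamini-Hochberg adjustment over all 45037, and the script was tested on simulated data. Members and lists were chosen with earlier results of these data known, so no list was tested as a set. Named members were the 10 smallest and 3 largest p, Cdk1, Aurkb, Plk1 and Bub3, and those with probe sets of both signs; others are given more briefly. Each embryo gave 1 array, labelled as a biological replicate. Samples with the same replicate number did not all deviate together (correlations 0.33, -0.14 and 0.26), so the numbers were not taken as pairs. The alternatives tried were subtracting array medians, repeating quantile normalisation, weighting arrays, filtering probe sets, a robust prior, each array left out, a replicate block and a retinal covariate. The hybridization control split was chosen after seeing the data.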

Additional observations from a re-analysis of the deposited data

How the results depend on the processing

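The median difference of the members stayed positive, from 0.43 to 0.69 over every alternative except the retinal covariate, where it was -0.11. None passed as deposited, with limma's smallest adjusted p at 0.0526. There were 6 calls after quantile normalisation was repeated, 8 with array weights, 3 with the replicate block, 4 among the probe sets of standard deviation above the median, and 8 with the hybridization control split, which was chosen after seeing the data. The filter on standard deviation keeps probe sets partly by the genotype difference itself, and every member had the same SE of 0.30 in that fit, so its calls rank by difference alone. With each array left out there were 0 to 2 calls, the 2 being Ccna2 and Spc25 without wild type 2. Over all probe sets the calls went from 211 to 584, 889, 530, 738 and 790 in these settings in that order (1.3%, 1.97%, 1.18%, 3.28% and 1.75% of those tested), to between 7 and 155 with an array left out, and to 0 with the retinal covariate, where 0 of the 84 member probe sets had an unadjusted p under 0.05. Members without overlap numbered 41 (8.73% of all probe sets), 34 of 68 without probe sets that may cross-hybridise (8.39% of all) and 40 of 74 with a standard deviation above the median (11.4%). Leaving out an array makes separation easier for every probe set: members gave 42 to 54 and all probe sets 11.3% to 15%.

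The replicate block gave adjusted p values of 0.029, 0.0451 and 0.0464 for Mki67, Prc1 and Tpx2. It uses the replicate number, which was not taken as a pairing. Whether that number marks pairs of samples could not be decided, since the correlations between samples of the same number differed in sign. Signs turned in single genes: Cenpa read -0.018 after quantile normalisation, -0.16 with array weights and -0.37 to 0.60 with an array left out, and Aurka -0.14 to 0.37 with an array left out. With the retinal covariate Nusap1 read -0.029, Cdk1 -0.26, Cenpa -1.81, Aurka -0.71, Aurkb -1.31, Plk1 -0.50, Kif2c -0.46 and Top2a -0.046. The cause of these changes was not tested. Filters on dim probe sets need levels and were not run.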
